A study of Mus musculus with 12 samples.

Results

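The 6 samples of run 2 were compared with the 6 samples of run 1 in a study of mouse lung CD11c+ cells, over both treatments, which are all 12 samples of the series. Genes entered the comparison if they were endogenous genes of the panel, not control probes, and had a mean raw count of at least 20 over the 12 samples. Of the 754 endogenous genes 435 did so and 319 did not. All samples came from RELMa-/- mice, which lack the gene Retnla, infected with 500 L3 larvae of the rodent nematode Nippostrongylus brasiliensis and killed on day 10. CD11c+ cells sorted from the lungs spent the night at 37 °C in medium with 10% serum. They were then kept in 1% serum, for 1 h according to the growth protocol and for 2 h according to the series' design. Cells of each run then received either PBS or 500 ng/ml recombinant RELMa (rRELMa) for 4 h, with 3 samples of each treatment in each run. Lysate of about 5000 cells per sample was incubated for 18 h at 65 °C with probes of the NanoString nCounter Myeloid Innate Immunity Panel, in which colour-barcoded reporters of single transcripts are counted without sequencing. The labels do not say what separated the runs, nor whether the numbered samples are separate animals or cultures, so the p-values reflect the spread among these 12 samples only, and that spread may be technical.

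CD11c is the integrin alpha X chain, and in the lung it is carried by alveolar macrophages and by dendritic cells. Alveolar macrophages clear surfactant lipid from the airspace and depend on the nuclear receptor PPAR gamma, and infection with helminths drives lung macrophages to alternative activation through the interleukin-4 receptor. Interferons act through cell-surface receptors to switch on a common set of antiviral genes, antigen-presentation genes and chemokines, and interferon gamma also drives classical activation, marked by nitric oxide synthase 2.

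Itgax, which encodes CD11c, was above background in all 12 samples. It had TMM-scaled counts of 300 to 393 in run 1 and 749 to 787 in run 2, where TMM is edgeR's scaling on the bulk of the tested genes. All 13 alveolar macrophage markers on the panel were tested, as were 12 of 16 dendritic cell markers and 13 of 15 interstitial macrophage markers. The panel's markers of lymphocytes (4 of T cells, 1 of B cells and 3 of NK cells) and its 10 markers of mast cells and basophils all stayed below the count minimum. That minimum is a mean of raw counts over both runs. The 3 NK cell markers summed to 41 to 84 raw counts in run 1 and 19 to 30 in run 2, without overlap, and were not tested. Raw sums of the T cell, B cell, and mast cell and basophil markers overlapped between the runs. Retnla itself gave 5 to 18 raw counts in the 12 samples, and was not tested. In bulk samples such as these, fewer cells of a type and less RNA per cell cannot be told apart.

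The assay readings differed between the runs. The endogenous total of a sample ranged from 179719 to 257415 in run 1 and from 411169 to 765719 in run 2, while the 6 positive-control probes summed to a mean of 132631 in run 1 and 85719 in run 2. The negative-control probes gave a mean of 13.2 counts in run 1 and 10.9 in run 2 (exact permutation test, two-sided p = 0.0714, smallest possible 0.00216). Scaling the larger run 2 counts down therefore moved its background down as well: on the TMM scale the 8 negative controls had a median log2 difference of -1.56 between run 2 and run 1 (-1.89 to -1.21). A gene near background can take a similar negative value, and 47 of the 177 genes called lower and 21 of the 150 called higher were not above the background limit in at least 1 sample. That limit, the mean plus 2 SD of a sample's negative controls, averaged 40.7 scaled counts in run 1 and 15.5 in run 2.

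Relative to the bulk of the tested genes, run 1 cells carried the higher levels of interferon-stimulated genes and of most antigen-presentation and chemokine genes. Run 2 cells carried the higher levels of most alveolar macrophage and lipid genes. By edgeR's quasi-likelihood test with treatment as block, 327 of the 435 genes (75.2%) differed at an adjusted p under 0.05. Of these, 150 (34.5% of those tested) were higher in run 2 and 177 (40.7%) were lower. Under TMM more genes were called lower by at least 2-fold, 64 (14.7%), than higher by at least 2-fold, 22 (5.06%). Background limits this comparison, since the negative controls averaged 22.0 scaled counts in run 1 and 7.87 in run 2. The size of a difference near background, in either direction, depended on it. With the negative controls subtracted, Siglecf, higher in run 2, went from 1.54 to 2.97, and Cxcl9, lower in run 2, was at -7.24. All 6 samples of run 2 lay above all 6 of run 1 for 110 genes (25.3%), and below them for 122 genes (28%). The first principal component of the log2 values, with 86.4% of the variance, placed the run 1 samples at -10.5 to -9.96 and the run 2 samples at 9.26 to 10.8.

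**Figure D1:**
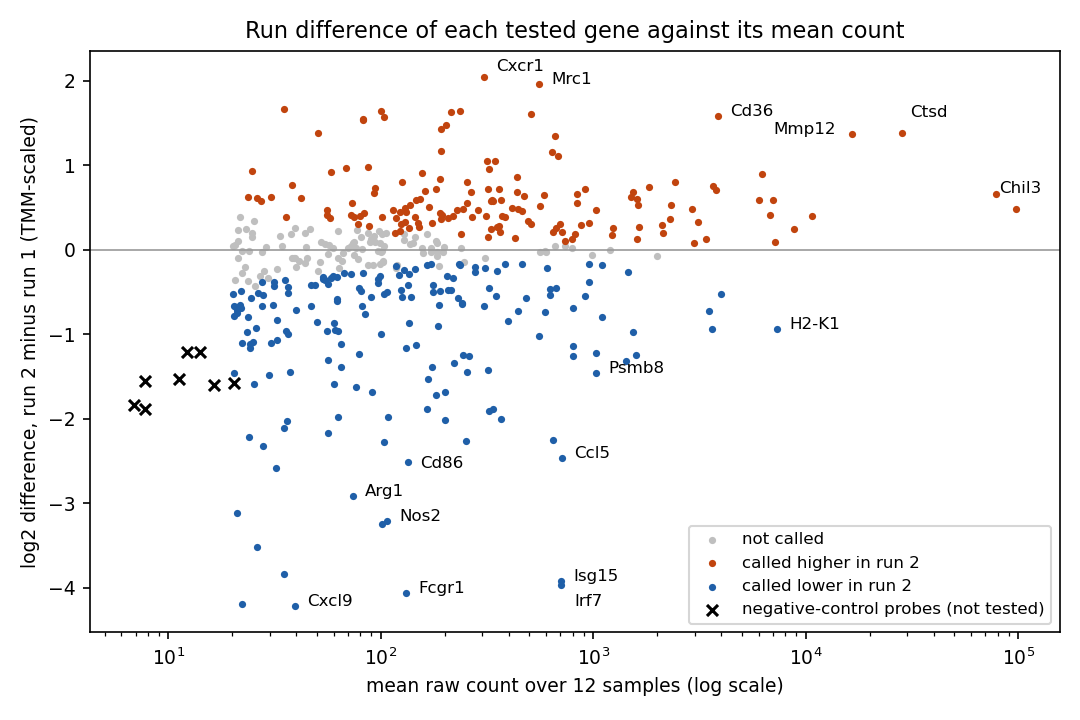
Log2 difference of each of the 435 tested genes (run 2 minus run 1, TMM-scaled, y axis) against its mean raw count over the 12 samples (x axis, log scale). Points are genes, coloured by whether they were called higher (150) or lower (177) in run 2, and crosses are the 8 negative-control probes, which lie between -1.89 and -1.21. With scaling to the positive controls the median gene moves up to 1.78, and 148 of the 177 lower genes turn positive.

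The direction of a moderate difference depended on what the counts were scaled to. The split of 150 higher and 177 lower became 158 and 164 with DESeq2 size factors, 97 and 225 with totals that left out Chil3 and Chil4, 78 and 246 with the reference genes, and 73 and 265 with totals of the tested genes. With quantile normalization it was 196 and 129, and with the negative controls subtracted 144 and 157. Scaling to the positive controls, synthetic targets added to each reaction at set amounts, gave 398 and 19. The median difference of all tested genes was -0.03 under TMM, -0.37 with totals, -0.33 with reference genes, 0.14 with quantiles and 1.78 with positive controls. Endogenous counts per positive-control count were 1.67 ± 0.171 (SD, n = 6) in run 1 and 7.54 ± 0.943 (SD, n = 6) in run 2, with no overlap (exact permutation test, two-sided p = 0.00216, the smallest possible). Values below are relative to TMM. Under all 9 scalings 69 genes were called higher in run 2 and 19 called lower. Under the 8 scalings other than the positive controls the counts were 69 and 121.

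**Figure D2:**
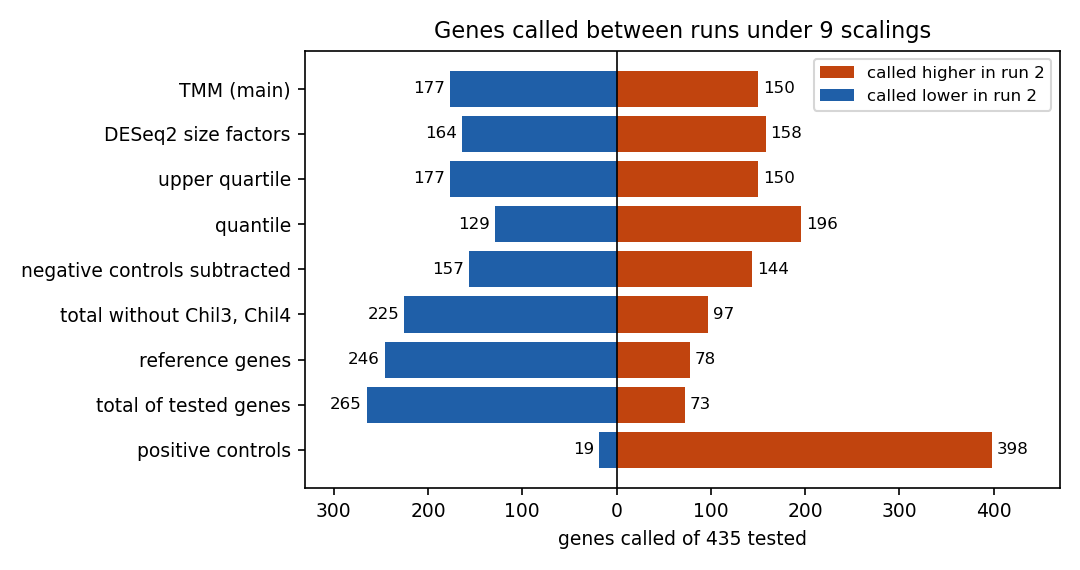
Number of the 435 tested genes called higher (right) or lower (left) in run 2 under each of 9 scalings, at an adjusted p under 0.05. The TMM split of 150 and 177 shifts to 73 and 265 with totals and to 398 and 19 with positive controls.

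The 19 genes called lower under every one of the 9 scalings were Cxcl9, Ifit1bl1, Fcgr1, Irf7, Isg15, Ly6c1, Cxcl10, Fpr2, Nos2, Mx2, Arg1, Mx1, Cd86, Ccl5, Fpr1, Trex1, Cd1d1, Il1rn and Clec9a. Of these, 6 are among the 10 tested interferon-stimulated genes and 1, Cd1d1, is among the 12 tested MHC class I pathway genes. Over all tested genes the count was 19 of 435. The 69 higher genes, of 435 tested, held 6 of the 13 tested alveolar macrophage markers and 8 of the 16 lipid genes. They also held 7 of the 14 matrix genes and 7 of the 20 reference genes.

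Interferon-stimulated genes showed the largest differences. All 10 tested members of the list (12 on the panel) were lower in run 2, with non-overlapping samples in each and a median log2 difference of -2.85 against -0.03 over all tested genes. With scaling to the positive controls 6 were called lower and 2 higher, and the median was -1.05. Isg15, a ubiquitin-like protein that is attached to other proteins during the antiviral response, had scaled counts of 1899, 2064 and 2082 in run 1 (lowest, median and highest of 6 samples) and 107, 125 and 168 in run 2. Its mean was 15.1-fold lower in run 2 (log2 difference -3.92, SE 0.07, adjusted p = 1.41e-28). Irf7, the transcription factor that amplifies interferon production, had 1984, 2026 and 2151 in run 1 and 97.8, 126 and 154 in run 2 (log2 difference -3.96, SE 0.06, adjusted p = 2.09e-29). For both genes every run 1 sample lay far above every run 2 sample, and the samples within a run lay close together.

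Other members were at or near background in run 2. Cxcl9 and Cxcl10, the interferon-induced ligands of CXCR3, and Mx2, an antiviral GTPase, were above background in all 6 run 1 samples and in 0 of 6 run 2 samples. Set against the run 2 background limit, they were at least 7.42-fold, 4.64-fold and 3.54-fold lower in run 2. Ifit1bl1, a gene of the interferon-induced IFIT family outside the list, was likewise at least 4.30-fold lower. Mx1 (log2 difference -2.58) and Usp18, the protease that removes Isg15 from proteins (-2.02), were above background in 1 and 3 of the 6 run 2 samples. Irf1 (-1.16) and the feedback inhibitor Socs1 (-0.83, above background in 4 of 6 run 1 samples) differed least.

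To show the sequence context of these genes, 3 promoters are given from RefSeq on GRCm38.p6, each 250 bases before to 50 bases after the start of transcription, with the core of the interferon-stimulated response element (GAAANNGAAA, either strand) in capitals. Isg15 (gene at chr4:156199424-156200818, minus strand) and Cxcl10 hold it, and Cxcl9, which was at background in run 2, does not. Irf7, Psmb8, Psme2 and H2-K1, whose promoters are not printed, do not hold it either.
Isg15, chr4:156200769-156201068, minus strand: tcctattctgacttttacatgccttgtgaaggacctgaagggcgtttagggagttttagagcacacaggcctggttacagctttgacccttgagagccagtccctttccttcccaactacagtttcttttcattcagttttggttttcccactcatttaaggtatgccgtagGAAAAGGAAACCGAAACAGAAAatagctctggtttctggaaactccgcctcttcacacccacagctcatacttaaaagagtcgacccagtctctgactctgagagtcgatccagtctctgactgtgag
Cxcl10, chr5:92348840-92349139, minus strand: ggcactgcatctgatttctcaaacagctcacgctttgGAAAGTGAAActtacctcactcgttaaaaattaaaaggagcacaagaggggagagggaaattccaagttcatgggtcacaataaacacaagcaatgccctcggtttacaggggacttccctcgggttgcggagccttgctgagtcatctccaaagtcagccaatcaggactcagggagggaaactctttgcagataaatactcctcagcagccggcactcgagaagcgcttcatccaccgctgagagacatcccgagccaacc
Cxcl9, chr5:92328030-92328329, minus strand: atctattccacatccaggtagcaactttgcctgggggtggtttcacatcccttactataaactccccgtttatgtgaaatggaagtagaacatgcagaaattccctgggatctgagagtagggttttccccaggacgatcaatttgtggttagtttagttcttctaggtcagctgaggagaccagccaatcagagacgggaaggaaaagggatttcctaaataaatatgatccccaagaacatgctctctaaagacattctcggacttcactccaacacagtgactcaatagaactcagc
In Isg15 the capitals are 3 overlapping cores whose first bases lie at -78, -72 and -66, and in Cxcl10 there is 1 core at -213. The table held promoters for 334 of the 435 tested genes, and 25 of these (7.49%) had a core, as did 3.99% of the 27025 genes in the table. It was found in 3 of the 6 tested interferon-stimulated genes and 1 of the 10 tested MHC class I pathway genes with a promoter. Among genes called by at least 2-fold, 4 of 43 lower genes (9.30%) and 0 of 19 higher genes held it. The gamma-activated site (TTCNNNGAA, a palindrome, so both strands are read at once) was found in 11.7% of tested genes with a promoter, 5 of the 43 lower genes (11.6%), 0 of the 19 higher genes and 9.55% of all genes in the table. Matches to either motif could overlap and were counted once per gene.

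The receptors and upstream factors of the interferon response differed by less under TMM. Of the 8 tested genes for interferons and their receptors, 4 were called lower and 1 higher, with a median log2 difference of -0.09. The median was -0.43 with totals (5 lower, 0 higher), -0.39 with reference genes (5 and 0), 0.06 with quantiles and 1.72 with positive controls. The transcription factor Irf5 (-0.46) and both chains of the type I interferon receptor, Ifnar2 (-0.42) and Ifnar1 (-0.21), were lower, and all 3 turned positive with the positive controls. Ifngr1, the ligand-binding chain of the interferon gamma receptor, was 0.27 higher but turned to -0.07 with totals and -0.02 with reference genes. Irf8 (0.02), Tmem173, the DNA-sensing adaptor STING (0.04), and Irf3 (0.22) did not pass the test.

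**Figure D3:**
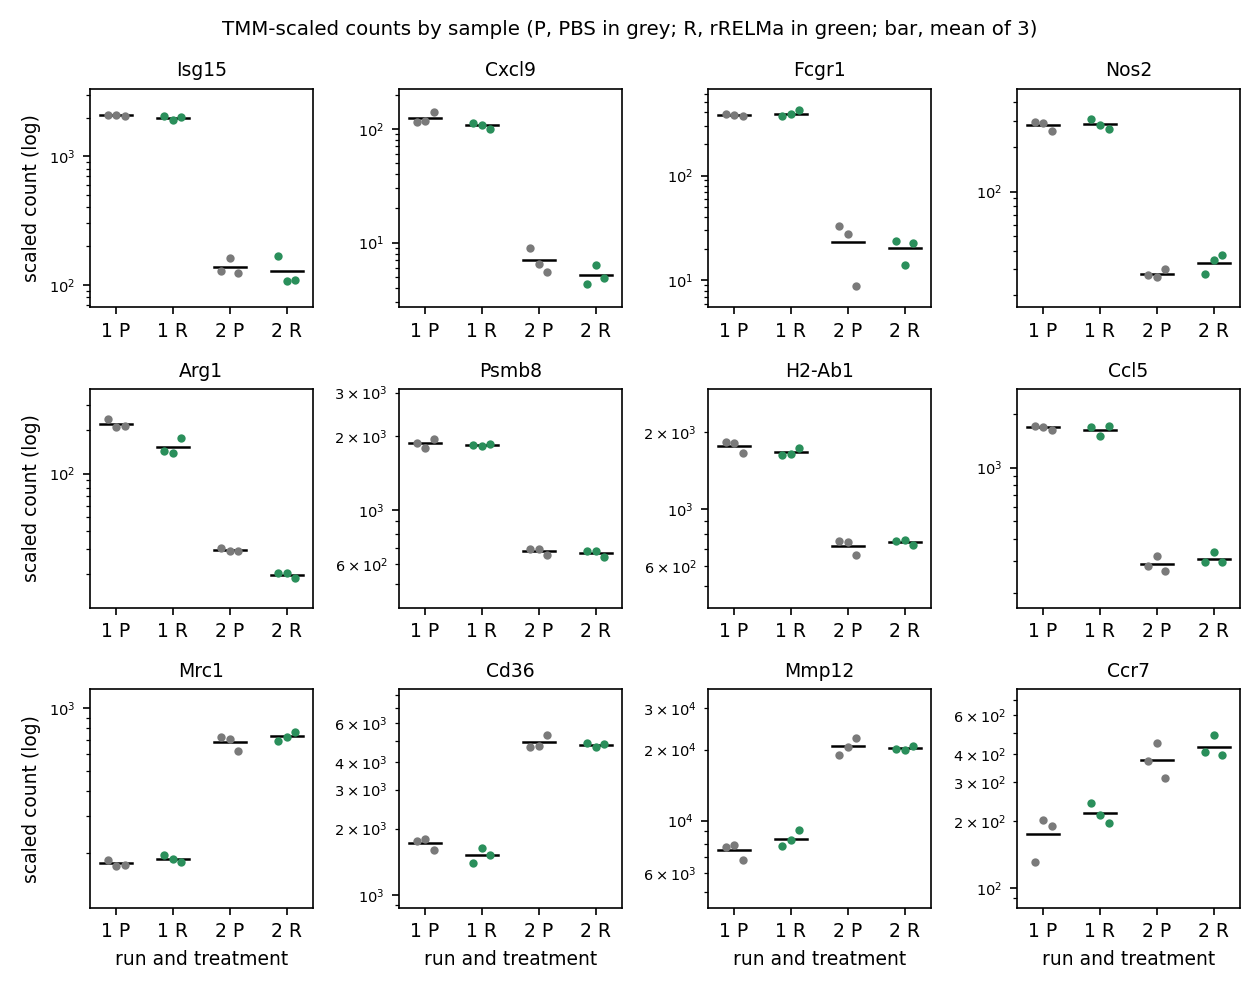
TMM-scaled counts (y axis, log scale, range set for each gene) of 12 genes in each of the 12 samples, by run (1 or 2) and treatment (P, PBS in grey; R, rRELMa in green); dots are samples and bars the means of 3. Isg15, Cxcl9, Fcgr1, Nos2, Arg1, Psmb8, H2-Ab1 and Ccl5 sit lower in run 2, and Mrc1, Cd36, Mmp12 and Ccr7 higher, without overlap; with scaling to the positive controls Psmb8 (0.36) and H2-Ab1 (0.59) turn positive.

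Genes of the MHC class I pathway, a list that also holds heavy chains and Cd1d1, were mostly lower in run 2 as well. Of the 12 tested, 10 were lower and 2 higher, with a median log2 difference of -1.19. With totals, totals without Chil3 and Chil4, reference genes, quantiles or subtraction of the negative controls, 11 were lower and 1 higher. With scaling to the positive controls 9 were called higher and 1 lower, with a median of 0.63. The peptide transporter subunits Tap1 (-1.90) and Tap2 (-1.30), the immunoproteasome subunits Psmb9 (-1.88) and Psmb8 (-1.45), the proteasome activator Psme2 (-1.24) and the loading factor Tapbp (-1.02) were lower by at least 2-fold each under TMM. Psmb8 had 1792, 1844 and 1934 scaled counts in run 1 and 641, 679 and 695 in run 2, with no overlap (SE 0.04, adjusted p = 1.57e-24). Of the classical heavy chains, H2-K1 had 10369, 11006 and 11636 in run 1 and 5578, 5758 and 5817 in run 2 (log2 difference -0.94, SE 0.03, adjusted p = 4.04e-21). H2-D1 had 6319 to 7226 in run 1 and 6927 to 7535 in run 2, overlapping (0.09, SE 0.04, adjusted p = 0.0273). Its direction depended on the scaling: it was called lower under 5 of the 9 scalings, with -0.25 from totals and -0.21 from reference genes, and higher under 4. The sources used here do not say whether the panel's probes tell these close paralogs apart. Cd1d1, which presents lipids rather than peptides, fell by 2.27 on the log2 scale. Calr, a chaperone of the endoplasmic reticulum that helps to fold the heavy chain, was 0.75 higher in run 2, also under all 9 scalings.

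MHC class II genes differed in the same direction and by less. Of 7 tested genes 6 were lower and 1 higher, with a median of -0.95, but all 7 were called higher with the positive controls (median 0.87). H2-Ab1 had 1619, 1693 and 1830 scaled counts in run 1 and 660, 745 and 758 in run 2, without overlap (-1.22, SE 0.04, adjusted p = 2.93e-21). The other chains H2-Aa (-0.97) and H2-Eb1 (-0.69), the peptide exchanger H2-DMa (-1.23) and the invariant chain Cd74 (-0.52) were lower too. Ctss, the cathepsin that trims the invariant chain, was 0.24 higher, a sign that turned with totals (-0.10), reference genes (-0.06) and subtraction of the negative controls (-0.0045).

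Genes of classical activation and inflammation were mostly lower in run 2. Of 10 inflammatory cytokines and enzymes 7 were lower and 2 higher, with a median of -0.67 (1.14 with the positive controls, 6 called higher and 2 lower). Nos2, the inducible nitric oxide synthase, had 257, 287 and 308 scaled counts in run 1 and 26.5, 28.8 and 37.6 in run 2, a 9.26-fold difference without overlap (-3.21, SE 0.09, adjusted p = 6.03e-23). Il1rn, which encodes the antagonist of the interleukin-1 receptor, had 1307, 1455 and 1561 in run 1 and 255, 310 and 322 in run 2 (-2.25, SE 0.05, adjusted p = 4.39e-25). Acod1, the itaconate-producing enzyme of activated macrophages (-1.98), and Ptgs2, the inducible cyclooxygenase (-2.22, above background in 1 of 6 run 2 samples), were lower. Tnf differed less (-0.56) and its samples overlapped. Il12b, the shared chain of interleukins 12 and 23, ran the other way at 1.38 higher, with 10.8 to 47.7 scaled counts in run 1 and 48.7 to 76.7 in run 2, above background in 1 of 6 run 1 samples.

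Counts for sensors and signalling genes of the NF-kB pathway depended on the scaling. Of 8 NF-kB genes 3 were lower under TMM, Nfkbiz (-0.97), Nfkbia (-0.48) and Tnfaip3 (-0.30), and 5 did not pass (median -0.16). With totals 7 of the 8 were lower (median -0.50), with reference genes also 7 (-0.45), with quantiles 3 were lower and 2 higher (0.06), and with positive controls all 8 were higher (1.65). Nfkbiz was above background in 3 of 6 run 1 samples, and was -0.14 with the negative controls subtracted. Of 17 pattern recognition genes 6 were lower and 4 higher under TMM (median -0.09). These counts were 13 and 2 with totals (-0.43), 12 and 3 with reference genes (-0.39), 4 and 6 with quantiles (0.12), and 0 and 16 with positive controls (1.72). Cd14, the lipopolysaccharide co-receptor, had 331, 354 and 374 scaled counts in run 1 and 95.7, 107 and 120 in run 2 (-1.72, SE 0.07, adjusted p = 9.17e-20). Clec7a, the beta-glucan receptor Dectin-1, fell by 0.73 and Tlr9, above background in 3 of 6 run 1 samples, by 1.11 on the log2 scale, and Tlr7 was 0.47 higher. Tlr2 (0.02), Tlr4 (-0.14) and Myd88 (-0.15) did not pass the test. Trem2 (1.11) and its signalling partner Tyrobp (0.70) were higher in run 2 under all 9 scalings. Of 6 inflammasome and interleukin-1 family genes, Il1rn, Nlrp3 (-0.99) and Casp1 (-0.26) were lower and Il1a was 0.30 higher.

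Chemokine genes were lower in run 2 and chemokine receptors split. Of 9 CC chemokines 7 were lower and 2 higher (median -1.25, or 0.57 with positive controls), and all 6 CXC and other chemokines were lower (median -0.58, or 1.24 with positive controls), among them Cxcl9 and Cxcl10. Ccl5, a T-cell and monocyte attractant, had 1507, 1688 and 1718 scaled counts in run 1 and 264, 296 and 335 in run 2, without overlap (-2.46, SE 0.05, adjusted p = 8.19e-27). The monocyte attractant Ccl2 (-2.10), the eosinophil attractant Ccl24 (-1.53), Ccl8 (-1.39), Ccl6 (-1.25) and Ccl9 (-0.80) were lower with no overlap. Ccl3, a ligand of CCR1, was 0.98 higher in run 2, and the gene of that receptor, Ccr1, was lower at -0.73. Ccr7, the receptor that leads dendritic cells to lymph nodes, had 130, 199 and 242 in run 1 and 312, 402 and 488 in run 2 (1.05, SE 0.09, adjusted p = 1.78e-11). Cxcr1, an interleukin-8 receptor best known from neutrophils, had the most positive difference of all tested genes under TMM at 2.04 (SE 0.09, adjusted p = 6.75e-19), with 65.2, 91.9 and 121 in run 1 and 365, 390 and 428 in run 2. With the negative controls subtracted Cxcr1 was at 2.19, below Siglecf (2.97) and Ptgs1 (2.93), so that rank depended on the background. Cxcr4 (0.72) and the atypical receptor Ccrl2 (0.68) were higher as well, so 4 of 6 receptors were higher and 2 lower.

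Complement, Fc receptor and costimulation genes were divided by member. Of 8 complement genes 6 were lower and 2 higher, with a median of -1.13 that was 0.68 with positive controls. C3, the central complement protein, had 684, 779 and 928 scaled counts in run 1 and 184, 190 and 204 in run 2 (-2.01, SE 0.06, adjusted p = 2.03e-22). The complement receptors C3ar1 (-1.42) and C5ar1, the receptor of C5a (-1.39), were lower. The chains of C1q were lower by unequal amounts, C1qa at -1.59, C1qb at -0.87 and C1qc at -0.76. The 2 higher members were the integrins of the complement receptors, Itgam (0.83) and Itgax (1.16). Among Fc receptors, Fcgr1, the high-affinity receptor for IgG that interferon gamma induces, had 367, 379 and 419 in run 1 and 8.86, 23.5 and 33.0 in run 2 (-4.07, SE 0.12, adjusted p = 1.32e-22), above background in 4 of 6 run 2 samples. The low-affinity activating receptor Fcgr3 (0.95) and the inhibitory Fcgr2b (0.65) were higher under all 9 scalings. Of 7 costimulation genes 5 were lower and 2 higher, with a median of -0.67 (1.15 with positive controls). Cd86, a ligand of CD28, had 284, 310 and 383 in run 1 and 50.3, 56.0 and 60.9 in run 2 (-2.51, SE 0.08, adjusted p = 1.13e-21), the PD-1 ligand Cd274 fell by 1.14 on the log2 scale, and Cd83 was 0.73 higher.

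**Figure D4:**
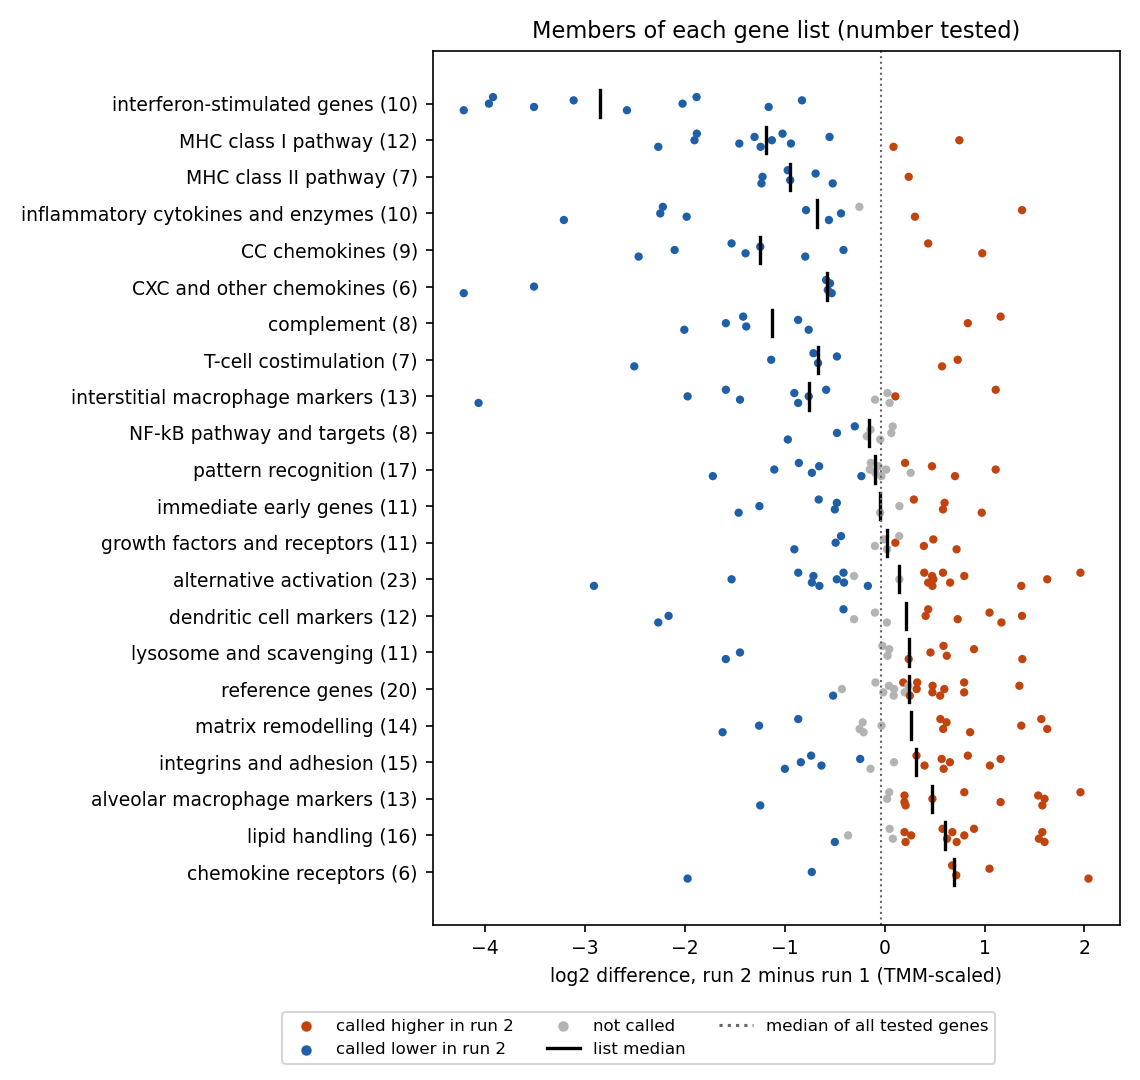
Log2 difference (run 2 minus run 1, TMM-scaled, x axis) of the tested members of 22 gene lists (y axis, number tested in brackets). Points are genes coloured by call, black bars the list medians, and the dotted line the median of all tested genes (-0.03). The interferon-stimulated genes lie furthest to the left (median -2.85) and the chemokine receptors furthest to the right (0.70); with scaling to the positive controls every median shown but that of the interferon-stimulated genes is positive.

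Alternative activation did not move as a group. Of 23 tested genes 11 were higher, 10 lower and 2 did not pass, with a median of 0.15 that turned to -0.19 with totals, -0.15 with reference genes and -0.05 with totals without Chil3 and Chil4, and was 1.97 with positive controls. Arg1, the arginase that competes with nitric oxide synthase for arginine, had 139, 193 and 241 scaled counts in run 1 and 18.8, 24.6 and 30.3 in run 2 (-2.91, SE 0.10, adjusted p = 4.04e-21), so Arg1 and Nos2 were both lower in run 2. Mrc1, the mannose receptor, had 174, 183 and 196 in run 1 and 621, 720 and 771 in run 2, a 3.89-fold difference without overlap (1.96, SE 0.06, adjusted p = 1.32e-22). Chil3 and Chil4, chitinase-like proteins, were 0.48 and 0.66 higher under TMM. Together they took 35.9% ± 1.01 of endogenous counts in run 1 and 42.0% ± 1.19 in run 2 (SD, n = 6, exact permutation test, two-sided p = 0.00216, the smallest possible), and the split between these close paralogs is uncertain. The interleukin-4 receptor chain Il4ra (-0.65) and the eosinophil attractant Ccl24 were lower, and Stat6 (0.40), Egr2 (0.58) and Pparg (0.80) higher.

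Lipid-handling genes and alveolar macrophage markers were higher in run 2. Of 16 lipid genes 12 were higher and 1 lower (median 0.60), or 8 and 5 with totals (0.26) and 8 and 3 with reference genes (0.31). Cd36, the fatty acid and lipoprotein scavenger receptor, had 1404, 1622 and 1803 scaled counts in run 1 and 4674, 4779 and 5319 in run 2, a 2.99-fold difference without overlap (1.58, SE 0.04, adjusted p = 1.94e-23). Fabp4, a fatty acid-binding protein that PPAR gamma induces, had 179, 207 and 262 in run 1 and 565, 639 and 686 in run 2 (1.60, SE 0.06, adjusted p = 7.20e-20). The lysosomal acid lipase Lipa (0.89), the constitutive cyclooxygenase Ptgs1 (1.54) and the leukotriene-pathway genes Alox5ap (0.72) and Lta4h (0.68) were higher under all 9 scalings. Ptgs1 was near background in run 1, with 16 to 27 raw counts against limits of 19.7 to 31.1, and was at 2.93 with the negative controls subtracted. Fasn, the fatty acid synthase, had 36.2 to 44.2 in run 1 and 114 to 139 in run 2 (1.64, SE 0.11, adjusted p = 2.70e-14), above background in 3 of 6 run 1 samples. Outside the list, Insig1, a sensor of the sterol pathway, was 1.48 higher. Nr1h3, the liver X receptor alpha, fell by 0.50 on the log2 scale, and Apoe (0.05) did not pass the test.

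For 13 markers of alveolar macrophages the count was 10 higher and 1 lower (median 0.48), or 7 and 3 with reference genes (0.18) and 7 and 4 with totals (0.14). Siglecf, a sialic acid-binding lectin of alveolar macrophages and eosinophils, was above background in 2 of 6 run 1 samples and all 6 of run 2 (24.2 to 44.0 against 86.3 to 114, log2 difference 1.54). Marco (0.05) and Csf2ra (0.02), the receptor chain of the cytokine that alveolar macrophages need, did not pass, and Ccl6 was the lower one. The summed scaled counts of the 13 were 77625 to 86726 in run 1 and 112308 to 122536 in run 2, most of it Chil3. Interstitial macrophage markers were the reverse, with 8 of 13 lower and 2 higher (median -0.76, or 1.05 with positive controls), and summed counts of 3601 to 4020 in run 1 and 3060 to 3539 in run 2. Fcgr1, C1qa and the scavenger receptor Stab1 (-1.45) were among the lower ones, while Adgre1, which encodes F4/80 (-0.10), and Mertk (0.03) did not pass and Trem2 was higher.

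Markers of other cells did not move in 1 direction. Of 12 dendritic cell markers 6 were higher and 3 lower (median 0.22, or -0.08 with reference genes and -0.12 with totals). Clec9a, a receptor of the cross-presenting subset, had 111, 121 and 144 scaled counts in run 1 and 19.9, 26.1 and 38.6 in run 2 (-2.16, SE 0.13, adjusted p = 2.80e-15), while Fscn1, an actin-bundling protein of mature dendritic cells (1.17), Ccr7, Il12b and Cd83 were higher. Irf8 and Flt3 (-0.10) did not pass. The sum of the 12 was 1391 to 1705 in run 1 and 1314 to 1667 in run 2. Of the 5 tested neutrophil markers, the formyl peptide receptors Fpr2 (-3.24) and Fpr1 and also S100a8 (-0.64) were lower and Cxcr1 and Mmp8 (0.86) higher, with sums of 948 to 1128 in run 1 and 1070 to 1293 in run 2. Fpr1 had 51.3 to 83.6 scaled counts in run 1 and 8.86 to 16.2 in run 2, where 1 of 6 samples was above background. Ly6c1, a marker of monocytes and endothelium, was at least 6.46-fold lower, with 84.3 to 125 in run 1 and background in run 2. Of the other tested monocyte markers, Itgam was higher and Nr4a1 was called lower near background in both runs. In the list of epithelial, endothelial and stromal markers 2 genes were tested, 1 lower and 1 higher. Cav1, the caveolin of endothelium and alveolar epithelium, had 2279 to 2754 in run 1 and 938 to 1053 in run 2 (-1.32, or 0.49 with positive controls). Cdh1, the cadherin of epithelium, was called higher (0.57, SE 0.20, adjusted p = 0.0103), with 12.6 to 24.3 in run 1, where 0 of 6 samples were above background, and 24.4 to 43.2 in run 2, where all 6 were. Its raw counts were 6 to 17 in run 1 and 22 to 62 in run 2, so it reached the count minimum only through run 2. Cdh1 was not called with totals, totals without Chil3 and Chil4, or reference genes (0.28). How far the mix of cells has a part in the differences above was not tested.

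Lysosome, matrix and adhesion genes leaned to run 2 under TMM. The 20 reference genes leaned by a similar amount (median 0.24, 11 higher and 1 lower). Of 11 lysosome and scavenging genes 6 were higher and 2 lower (median 0.24), but 4 and 5 with reference genes (-0.06) and 3 and 6 with totals (-0.10). Ctsd, the lysosomal aspartic protease, had 12402, 13509 and 14092 scaled counts in run 1 and 33953, 34652 and 36248 in run 2 (1.38, SE 0.03, adjusted p = 1.57e-24), although quantile normalization, which sets the most abundant ranks equal, gave 0. Timd4, a receptor for dying cells, fell by 1.59 on the log2 scale, above background in 4 of 6 samples of each run. That difference lies within the range of the negative controls (-1.89 to -1.21). Of 14 matrix genes 7 were higher and 3 lower (median 0.26), or 7 and 7 with reference genes (-0.03) and with totals (-0.08). Mmp12, the macrophage elastase, had 6836, 7849 and 9102 in run 1 and 18963, 20303 and 22479 in run 2 (1.37, SE 0.05, adjusted p = 2.93e-21). Fibronectin, Fn1 (1.63), and the growth factor Pdgfa (1.57) were higher under all 9 scalings, and the protease Adam8 (-1.26) was lower. Of 15 integrin and adhesion genes 8 were higher and 5 lower (median 0.32, or -0.02 with totals), with Alcam at 1.05 and Itgb2 at 0.59 on the one side and Itgb7 (-1.0), Cd47, the signal that inhibits phagocytosis (-0.84), and Selplg (-0.74) on the other.

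The remaining lists held smaller differences. Of 11 immediate early genes 4 were higher and 5 lower (median -0.05, or -0.39 with totals, -0.34 with reference genes, 0.31 with quantiles and 1.79 with positive controls), with Maff (0.97) and Jun (0.60) on one side and Dusp1 (-1.25) on the other. Nr4a1, also called lower, was above background in 2 of 6 samples of each run, and its -1.46 lies within the range of the negative controls. Maff was near background in run 1, with 19 to 29 raw counts against limits of 19.7 to 31.1. All 4 redox genes were higher, among them Txn1 (0.41), Cybb (0.29) and Prdx1 (0.13), but with reference genes 0 were higher and 1 was lower. Hif1a (-0.57), Mif (-0.38) and Vegfa (-0.87), the 3 tested genes of the hypoxia list, were lower, and all 3 turned positive with the positive controls. Of 11 growth factor and receptor genes 4 were higher and 3 lower, and of 9 survival genes 3 were higher and 2 lower, with medians of 0.02 and -0.02 that changed sign between scalings. Of 6 genes of the interleukin-10 and TGF-beta axis 2 were higher and 2 lower, among them Tgfb1 (0.47) and Il10ra (-0.32).

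The 20 reference genes, used as stable standards in such panels, differed in direction by scaling. Under TMM 11 were higher in run 2, 1 was lower and 8 did not pass (median 0.24), with totals 7 were higher and 7 lower (-0.10), and with their own mean 7 and 5 (-0.05). Of the 20, 7 were higher under all 9 scalings. Gusb, a lysosomal glucuronidase, had 280, 318 and 337 scaled counts in run 1 and 790, 803 and 834 in run 2 (1.35, SE 0.05, adjusted p = 1.18e-20). Ppia (0.80) and Sdha (0.80) followed, while Tbp (0.09) and Hdac3 (-0.01) did not pass the test. The geometric mean of the 20 was 198 scaled counts in run 1 and 244 in run 2.

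For some genes the difference was bounded near 0 under TMM. The 95% interval of the difference lay within 1.2-fold in either direction for 37 of the 435 genes. Those with the tightest intervals, among genes with a mean raw count of at least 100, included Cebpb, a myeloid transcription factor (-0.01, SE 0.04), the common leukocyte antigen Ptprc (-0.02, SE 0.04), Ctsl (-0.02, SE 0.04), Mmp19 (-0.03, SE 0.05), Csf2ra, Marco, Apoe, Rhog (-0.07) and Ski (0.02). Sqstm1, the autophagy receptor p62, was called with a difference of only 0.08 (SE 0.04, adjusted p = 0.0342), and its sign turned under 5 other scalings. The positive-control scaling placed these genes between 1.75 for Rhog and 1.90 for Sqstm1.

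The difference between runs was much the same in PBS and in rRELMa. Between the runs 284 genes (65.3%) were called in PBS and 280 (64.4%) in rRELMa, and 246 were called in both with the same sign. Of the 435 genes 394 had the same sign in both. Across these genes the differences of the 2 treatments, from separate samples scaled together, were correlated with r = 0.97 (Pearson) and rho = 0.95 (Spearman), given as a description since genes are not independent replicates. Isg15 differed by -3.90 (SE 0.10) in PBS and -3.94 (SE 0.10) in rRELMa, Psmb8 by -1.45 and -1.46 (SE 0.05 each), Mrc1 by 1.96 and 1.96 (SE 0.09 each), and Cd36 by 1.51 and 1.65 (SE 0.06 each).

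**Figure D5:**
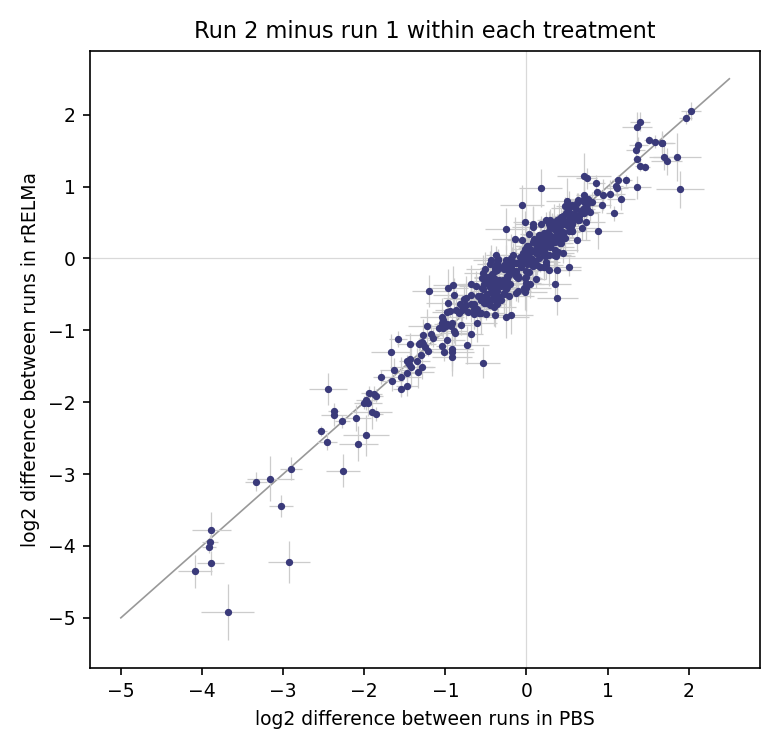
Log2 difference between the runs (run 2 minus run 1, TMM-scaled) of the 435 tested genes in PBS (x axis) and in rRELMa (y axis), with bars of 1 SE and the line of equal differences. The genes lie along the line, with 394 of 435 of the same sign.

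A test of whether the difference between runs depended on the treatment called 0 genes (0%, smallest adjusted p = 0.495), with 28 at an unadjusted p under 0.05 by edgeR. Limma called 0 with 27 unadjusted, and DESeq2 called 0 with 18. The median SE of this interaction was 0.19 on the log2 scale, and values as large as -0.91 for Nlrp3 were not called, so dependences of that size on treatment may have been missed. The smallest unadjusted p-values belonged to Ptger2, a prostaglandin E2 receptor (interaction -0.64, SE 0.19), Vav1 (-0.38), Nlrp3 (-0.91), Mmp8 (-0.46) and Csf2ra (-0.28) on the negative side and to Ear3 (0.46), Il1rn (0.26), Ctss (0.19), Irf3 (0.53) and Fn1 (0.50) on the positive side. None of these passed the adjustment. By contrast, the treatment itself, with the run as block, called 1 gene, and the median absolute log2 difference was 0.06 by treatment and 0.45 by run.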

How the data were processed

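The authors deposited raw NanoString counts, 1 whole number per probe and sample, for 754 endogenous genes, 6 positive and 8 negative controls (768 probes). Per the deposited values the counts are unscaled: totals differ between samples and the control probes are still present. No value lies under 1, so a floor may have been set. The sources used here do not name the counting software.

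Groups came from the sample titles (run, treatment, number). Genes with a mean raw count of at least 20 over the 12 samples were tested with edgeR's quasi-likelihood test (edgeR 4.0.16, limma 3.58.1, R 4.3.3), TMM scaling over the tested genes and treatment as block. All tests were two-sided. Benjamini-Hochberg adjustment ran over all 435 tested genes, with 0.05 as the threshold for a call. Printed adjusted p-values come from this test, and SE is that of the log2 difference. The difference within each treatment and the interaction came from a fit with 1 coefficient per group. Scaled counts are counts divided by the TMM scale of the sample times the mean scale. The common biological coefficient of variation was 4.78%. Samples of a group differed by more than counting noise in all pairs (chi-square per degree of freedom 1.58 to 3.20), so none was treated as a repeat deposit of another. This does not show that they are separate biological replicates. The script was tested on simulated data.

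The genes and lists were chosen with earlier results of these data known. Named genes were the 10 with the largest non-overlapping difference in each direction, up to 4 members of each list by unadjusted p, the 5 in each direction by interaction p, the 10 with the tightest bound around 0, and Retnla. Other list members, Insig1 and Trex1 were named after their values were seen. Symbols were matched to RefSeq for 744 of 754 genes. Alternatives were 8 other scalings, limma with a pseudocount of 1, DESeq2 1.42.0, 3 other filters, no treatment block, the sample number as block and leaving out each sample. Some tested genes are counted in the totals and are not reported here by name.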

Additional observations from a re-analysis of the deposited data

Results flagged for a closer look

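In sets of 6 samples of 1 run, a sample was marked when its gap to the nearest other sample took an unusually large share of the range (Dixon's test). Of 50 sets 6 were marked, where chance marks about 1 in 20. The cause was not tested for any of them.

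Cd36 had 5319 scaled counts in PBS sample 3 of run 2, against 4674 to 4860 in the other 5, and Ifit1bl1 had 11.1 in the same sample against 0.616 to 3.44, all at background. That sample also had the lowest endogenous total of run 2, 411169 against 656913 to 765719. In run 1, Fcgr1 had 419 in rRELMa sample 3 against 367 to 385 in the others, and Isg15 had 1899 in rRELMa sample 2 against 2024 to 2082. Endogenous counts per positive-control count were 9.32 in rRELMa sample 1 of run 2 and 6.76 to 7.67 in the other 5. Each of these far values lies on its own run's side of the difference between runs.

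Below the count minimum, and so outside the comparison, Fgfr1 and Pdgfra were above the background limit in all 6 run 2 samples and in 0 of 6 run 1 samples. Fgfr1, a fibroblast growth factor receptor, had a mean raw count of 27.3 in run 2 and 11.5 in run 1. Pdgfra, the receptor of platelet-derived growth factor that marks fibroblasts, had 28.8 in run 2 and 7 in run 1.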

How the results depend on the processing

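Leaving out each sample in turn gave 312 to 326 called genes, 146 to 155 higher and 158 to 176 lower, 262 to 285 in PBS, 248 to 281 in rRELMa and 0 for the interaction. The sample numbers did not pair the samples (correlations of same-numbered deviations from -0.15 to -0.003), and with the sample number as a replicate block 325 genes were called, 150 higher and 175 lower. DESeq2 called 152 higher and 151 lower, limma 147 and 174. Counts moved beyond 1.5 times as follows. The higher genes were 73 with totals of the tested genes, 97 with totals without Chil3 and Chil4, 78 with reference genes and 398 with positive controls, where 19 were lower. No filter raised the number of tested genes from 435 to 754, so its counts are over a larger set. It gave 547 calls (255 higher, 292 lower), 427 in PBS and 431 in rRELMa. A mean count of at least 100, chosen after the data were seen, left 251 genes with 206 calls, 104 of them lower. Counts near background limit what can be said: in run 1, 100 tested genes were not above the limit in every sample. The causes of the sign changes below were not tested beyond the scale shift itself, which moved the median of all genes to 1.78 with positive controls and to -0.23 without a filter.

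Of the genes called lower under TMM, 148 turned positive with positive controls, 38 without a filter, 18 with the negative controls subtracted and 11 with quantiles. Of those called higher, 39 turned negative with totals, 13 with totals without Chil3 and Chil4, 30 with reference genes, 13 with the negative controls subtracted, 3 with quantiles and 3 with the minimum of 100. Only genes picked by the naming rule are listed here, so the lists are partial (log2 difference, run 2 minus run 1). With positive controls they included Irf5 1.35, Ifnar2 1.40, Ifnar1 1.61, Psmb8 0.36, Psme2 0.57, H2-K1 0.88, H2-Ab1 0.59, H2-Aa 0.84, Cd74 1.30, H2-Eb1 1.12, Ccl24 0.29, Ccl6 0.57, Ccl9 1.02, Cxcl16 1.27, Cxcl3 1.25, Ccr1 1.09, Clec7a 1.09, Cd14 0.10, Nfkbia 1.34, Nfkbiz 0.84, Tnfaip3 1.51, Nlrp3 0.82, Casp1 1.55, C3ar1 0.40, C1qa 0.23, Fcgr4 1.50, Cd274 0.68, Havcr2 1.34, Stab1 0.35, Adam8 0.56, Selplg 1.08, Dusp1 0.56, Nr4a1 0.34, Hif1a 1.25, Mif 1.44, Vegfa 0.94, Tnfrsf1b 1.65, Cdkn1a 1.65, Il10ra 1.50, Smad7 1.47, Il3ra 1.32, Runx2 1.49, Cav1 0.49, Ear3 0.47 and Vav1 1.59. Without a filter they included Ifnar1 0.20, Tnfaip3 0.11, Casp1 0.15, Fcgr4 0.10, Mif 0.030, Tnfrsf1b 0.24, Cdkn1a 0.24, Il10ra 0.093, Smad7 0.062, Runx2 0.085 and Vav1 0.19. Totals gave Ifngr1 -0.070, Il1a -0.038, Cybb -0.049, Prdx1 -0.21, Tnfrsf1a -0.032, Ctss -0.10 and Sqstm1 -0.26, and totals without Chil3 and Chil4 gave Prdx1 -0.076 and Sqstm1 -0.12. Reference genes gave Ifngr1 -0.022, Cybb -0.0096, Prdx1 -0.17, Ctss -0.061 and Sqstm1 -0.21. Quantiles gave Tnfrsf1b 0.13, Smad7 0.028 and Sqstm1 -0.15, subtraction of the negative controls gave Prdx1 -0.091, Ctss -0.0045 and Sqstm1 -0.16, and the minimum of 100 gave Sqstm1 -0.028.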
